A study of Rattus norvegicus with 15 samples.

Results

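The genes described here had a level in Rat1a cells expressing wild-type MYC that was at least 2 times the level in each of the 4 other lines of the study. There were 47 such genes of 32545 in the tables. They were chosen on CPM (a gene's counts times 1000000 over the total of its library), averaged over the 3 libraries of a line. The WT mean had to reach 1 CPM and 2 times the mean of every other line. Each statement on WT against another line is therefore a description of how the genes were chosen, and no test is given for it.

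MYC is a transcription factor that pairs with MAX and binds short DNA motifs known as E-boxes at many promoters. It is known for raising genes of growth and metabolism, and acetyltransferases recruited by MYC can also acetylate lysines of MYC itself. Arginine in place of lysine keeps the positive charge and cannot be acetylated, and the study compared such mutants with the wild-type protein.

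Rat1a is an immortalized rat fibroblast line, although the labels call its cell type normal primary fibroblasts. It was grown attached to the dish in high-glucose medium with fetal bovine serum, and 5 stable lines were compared. The line called EV holds the vector without an insert, and the line called WT expresses mouse MYC with its lysines intact. In R149 the mouse protein carries K149R, in R158 it carries K158R, and in R323 it carries K323R. There were 3 biological replicates per line and 15 stranded mRNA libraries in all. Each construct was 1 stable line, so a property of the line and an effect of its construct cannot be told apart. Equally, in these bulk samples fewer cells expressing a gene and less RNA per cell cannot be told apart.

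The libraries held between 13303631 and 108933235 counts in genes, and 13676 genes passed the filter on low counts. The tables list rat Ensembl identifiers without names, and the reference table used here matched 0 of them. Symbols, functions, promoter sequences, fibroblast markers, the level of Myc and the gene lists fixed for this work were therefore not analysed here. The 47 genes are numbered from 1 to 47 by the ratio of the WT mean to the highest mean among the other lines. Identifiers are given for 2 genes that were high in WT and for 2 that fell below EV in mutant lines.

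The ratio that ranks the genes ran from 693 down to 2.07, with a median of 3.77. It was at least 20 in 6 genes, at least 5 in 14 and below 3 in 15. The median WT mean was 7.54 CPM. The WT mean was below 5 CPM in 22 genes, between 5 and 100 CPM in 21 and at least 100 CPM in 4. The next highest line was R149 for 15 genes, R158 for 13, EV for 11 and R323 for 8. Just inside the fold threshold the ratios were 2.15 (30.6 against 14.2 CPM) and 2.07 (11.5 against 5.59 CPM), and just outside they were 1.91 (10.3 against 5.37 CPM) and 1.86 (142.6 against 76.6 CPM). At the level threshold the lowest WT means kept were both 1.13 CPM, and the highest left out were 0.901 and 0.806 CPM.

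The same rule, applied with another line in the place of WT, found 493 genes for EV, 14 for R158, 14 for R323 and 1 for R149. WT thus had more genes standing above all other lines than any mutant line had, and fewer than EV. No test was made of these counts.

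**Figure D1:**
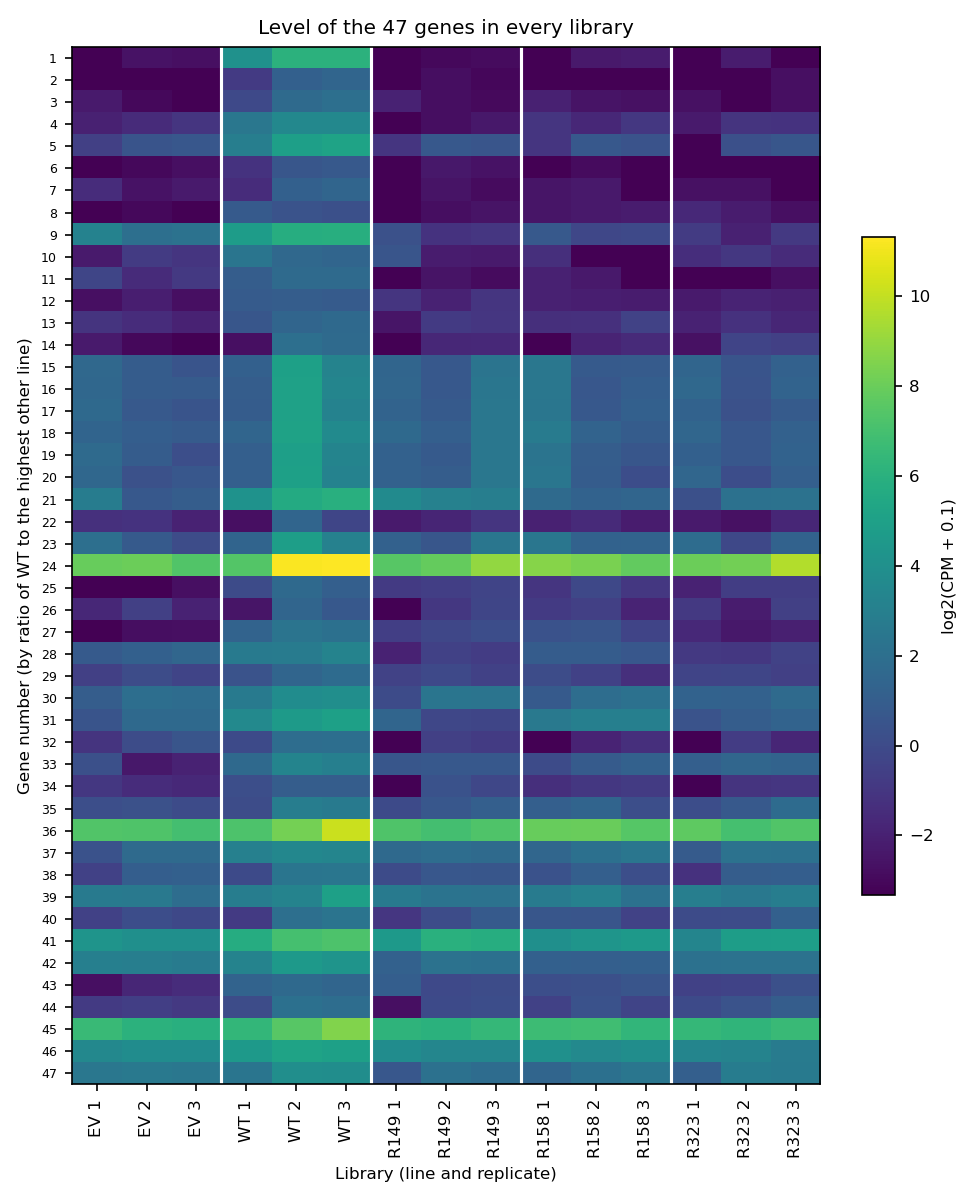
The colour gives log2(CPM + 0.1) for each of the 47 genes (rows, numbered by the ratio of WT to the highest other line) in each of the 15 libraries (columns, grouped by line, 3 replicates each). WT replicates 2 and 3 are brighter than the rest in most rows, while WT replicate 1 is close to the other lines in many rows, such as gene 24 and genes 15 to 20.

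Gene 1, ENSRNOG00000052880, was nearly silent outside the WT line. Its WT libraries held 17.3, 68.9 and 66.9 CPM (replicates 1, 2 and 3), 4459 counts in all. The summed counts were 4 each for EV and R323 and 5 each for R149 and R158, and no library outside WT exceeded 0.12 CPM. All 3 WT libraries stood far above the 12 others, with WT replicate 1 the lowest of the 3. The WT mean was 51 ± 29.3 CPM (SD, n = 3), against 0.0736 ± 0.0642 in R158, the next highest line.

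Genes 2 to 6 had the same shape at lower or equal levels. Gene 2 stood at 0.472, 2.14 and 2.69 CPM in the WT libraries. It had 0 counts in EV and R158, which allows up to 0.0364 CPM in EV and 0.0504 in R158 over the 3 libraries (3 counts of the line's total, counting error only), and 4 and 1 counts in R149 and R323. Gene 4 stood at 5.43, 11.5 and 11.2 CPM in WT, and the highest other library held 0.415 CPM. Gene 5 was the member of this set with the clearest level elsewhere, between 0 and 1.57 CPM in the 12 other libraries, against 7.74, 31.2 and 36.4 CPM in WT. In all of genes 1 to 6 the 3 WT libraries lay above the 12 others, and WT replicate 1 held between 0.196 and 0.48 times the mean of WT replicates 2 and 3.

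Gene 3 stood at 0.839, 3.26 and 3.91 CPM in WT and at no more than 0.162 CPM elsewhere. Gene 7 stood at 0.262, 2.2 and 2.65 CPM in WT, and its replicate 1 was just above the highest other library, EV replicate 1 at 0.261 CPM. Genes 8 and 10 were the exceptions in which WT replicate 1 was the highest WT library. Gene 8 held 1.65, 1.25 and 1.08 CPM in WT and at most 0.219 CPM elsewhere. Gene 10 held 5.12, 3.05 and 2.65 CPM in WT, and its highest other library was R149 replicate 1 at 1.35 CPM. The WT libraries of both genes lay above the 12 others.

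The label of genes high only with wild-type MYC held for line means but not always for libraries. In 25 of the 47 genes every WT library lay above all 12 other libraries, which was the case for 0.497% of all genes tested. The rule used this contrast, so nothing is read from the 2 shares. In the other 22 genes at least 1 WT library did not exceed the highest library of the other lines. All 3 WT libraries reached 2 times the highest other line mean in 15 genes. Only WT replicates 2 and 3 did so in 29 genes, and only WT replicate 3 in 3 genes.

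WT replicate 1 was the lowest of the 3 WT libraries in 45 of the 47 genes (95.7%), against 49.6% of all genes tested. Its level was a median of 0.29 times the mean of replicates 2 and 3 over the 47 genes, and 0.937 times over all genes tested. The 47 genes were chosen on the mean of these same WT libraries, so nothing is read from the difference to all genes. Over all genes tested, replicate 1 stood apart in other lines too. Chi-square per degree of freedom for replicates 1 and 2, 1 and 3, then 2 and 3 was 22.2, 24.5 and 7.97 in EV. It was 52.2, 63.1 and 23.1 in WT, 55.7, 87.3 and 20.6 in R149, and 48.2, 36.7 and 4.27 in R323. In R158 it was 46.7, 18.7 and 48.9, with replicates 1 and 3 the closest. Among the 47, gene 5 was lowest in replicate 1 of every line, and gene 9 was highest in replicate 1 of every line but WT. How many members were low in replicate 1 of other lines was not counted. The part of WT replicate 1 in the choice of genes was read by leaving libraries out. Without WT replicate 1 the rule found 59 genes, including all 47. Without WT replicate 2 it found 32, of which 31 were among the 47, and without WT replicate 3 it found 39, with 38 among the 47. With replicates 2 and 3 of every line alone, an alternative chosen after the libraries were seen, it found 52, with 46 among the 47. Compared only with libraries of the same replicate number, WT was at least 2 times every other line in 19 genes for replicate 1, 43 for replicate 2 and 36 for replicate 3, and in 17 genes for all 3.

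**Figure D2:**
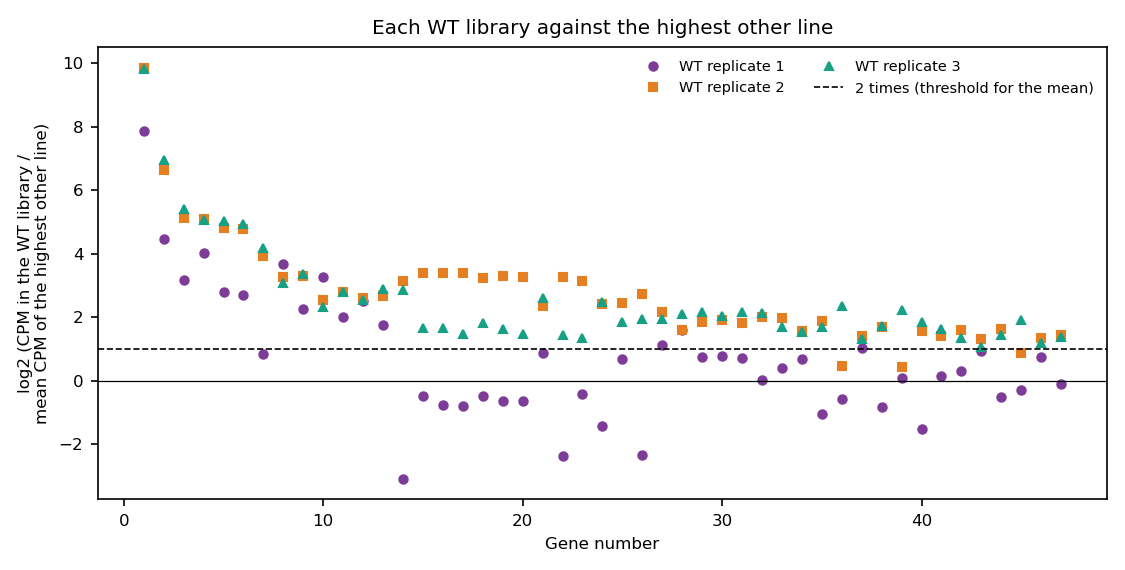
Each point gives the log2 ratio of 1 WT library to the mean of the highest other line, for the 47 genes along the horizontal axis (circles, squares and triangles are WT replicates 1, 2 and 3). The dashed line marks 2 times. Circles lie lowest in 45 of 47 genes, and for genes 15 to 20 the squares stand well above the triangles.

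The most abundant gene of the set, gene 24 or ENSRNOG00000047746, showed this split between WT libraries most strongly in absolute terms. Its WT libraries held 169.7, 2415 and 2574 CPM. In EV it held 240.5, 265 and 161 CPM. Among the mutants it held 186, 235 and 504 CPM in R149, then 399.5, 334 and 226 in R158, then 259.7, 301 and 808 in R323. WT replicate 1 was thus below 11 of the 12 libraries of other lines, while replicates 2 and 3 were above all of them. The line means were 1719.7 ± 1345 CPM in WT and 456 ± 306 in R323 (SD, n = 3), so the difference in means was smaller than the SD among WT libraries.

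Genes 15 to 20 and gene 23 had almost the same counts as each other. The 7 genes lay between 1.84 and 2.6 CPM in WT replicate 1, between 29.7 and 34.2 in replicate 2 and between 8.55 and 12.8 in replicate 3. Outside WT their highest value was 6.69 CPM, in R158 replicate 1, and R149 replicate 3 was the next library in order at 4.9 to 5.62 CPM. WT replicate 1 lay within the range of the other lines for all 7, and WT replicate 2 lay above replicate 3 for each. Over the 15 libraries the counts of any 2 of them differed in total by at most 1.15 times. Chi-square per degree of freedom for their proportions was 0.278 to 2.88 over 21 pairs, against a median of 16.5 over 630 pairs among 36 other members with at least 200 counts. Whether copies share reads was not tested, since the tables hold no sequence, and the 7 are uncertain as separate genes. Counted as 1 gene, they leave 41 members. By the same thresholds, chosen after the profiles were seen, genes 12 and 13 (chi-square per degree of freedom 2.44, totals 1.33 times apart) and genes 35 and 40 (1.11 and 1.49 times) also formed pairs, which were not merged.

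Gene 22 followed the same proportions at a level about 12 to 14 times lower, with chi-square per degree of freedom of 1.48 to 2.37 against the 7. Its WT libraries held 0.0525, 2.59 and 0.738 CPM.

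In 3 further genes only WT replicate 3 reached 2 times the highest other line mean. Gene 36 stood at 151, 312 and 1159.6 CPM in the WT libraries, and the other 12 libraries lay between 122 and 255 CPM. Gene 45 stood at 81.6, 183 and 380 CPM in WT and between 60.2 and 116 CPM elsewhere. Gene 39 stood at 7.32, 9.18 and 32.4 CPM in WT and between 3.62 and 8.62 CPM elsewhere. In all 3 genes WT replicate 1 lay within the range of the other lines, and WT replicate 2 lay above it. None of the 3 met the rule without WT replicate 3.

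**Figure D3:**
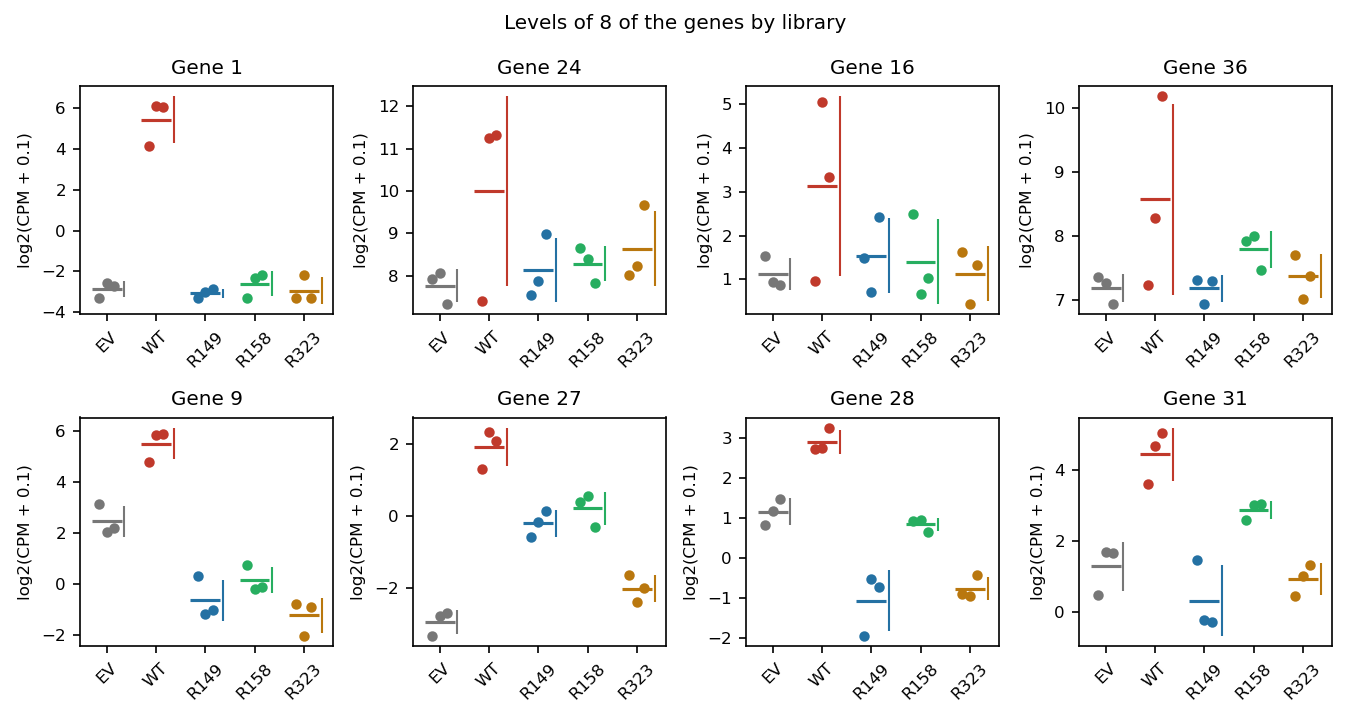
Each panel gives log2(CPM + 0.1) of 1 gene in the 15 libraries by line (points are libraries in replicate order, horizontal bars the mean and vertical bars 1 SD of these log values, n = 3). Genes 1, 9, 27, 28 and 31 have WT libraries above all others, while genes 24, 16 and 36 have WT replicate 1 within the range of the other lines.

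The rule did not set the mutant lines against EV, so those differences could be tested. The question was whether these genes differed between each mutant line and EV, and in which direction. All genes were fitted together with edgeR's quasi-likelihood test over the 15 libraries, with Benjamini-Hochberg adjustment over all 13676 genes and an adjusted p below 0.05 as the threshold. Of the 47 genes, 46 passed the filter, 11 of them only through the WT libraries, and gene 7 did not pass. In the 11 the other lines are close to silent, so a difference between them was hard to detect at this depth.

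Genes 4, 8, 11 and 12 are among the 11, and their calls below rest on tests they entered only through the libraries in which they were chosen to be high.

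In R149, 7 of the 46 genes rose and 5 fell against EV, 26.1% in all, where 38.5% of all genes tested were called (18.2% higher and 20.2% lower). In R158, 5 rose and 3 fell, 17.4% in all, where 28.5% of all genes were called (14.4% higher and 14.1% lower). In R323, 4 rose and 4 fell, 17.4% in all, where 29.8% of all genes were called (14.1% higher and 15.7% lower). Among the 35 genes that passed the filter without the WT libraries, the calls numbered 9 (R149), 7 (R158) and 6 (R323). The 46 include the 11 genes that passed only through WT, so nothing is read from their shares being below those among all genes. In a fit without the WT libraries, 9 members were called in R149, 8 in R158 and 7 in R323. In that fit 38.7%, 28.7% and 30.5% of all genes were called. Against EV, the median log2 fold change of the 46 genes came to 0.51 (R149), 0.50 (R158) and 0.04 (R323), beside 0.00262, 0.0117 and 0.00201 over all genes tested. Over the 35 genes that passed without the WT libraries, the medians were 0.489 (R149), 0.487 (R158) and 0.0361 (R323). The 7 genes of near-identical counts enter these medians as 7 values, which lay between 0.535 and 0.968 in R149. Medians with the 7 counted as 1 gene were not computed. The 3 comparisons share the EV libraries.

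These counts depended on which libraries were used, and so did the share of all genes called. In R149, leaving out 1 replicate 1 library gave 12 or 13 calls, and leaving out EV replicate 2 or 3 gave 9. Of all genes, 32.9% to 39.9% were called in the former fits, and 29% and 27.8% in the latter. Leaving replicate 2 or 3 out of every line was not tried. With replicates 2 and 3 alone, 21 genes were called in R149, 14 in R158 and 15 in R323, where 46.9%, 41.8% and 42.8% of all genes were called. For R158 the count was 5 without EV replicate 3 or without R158 replicate 2, where 15.1% and 20% of all genes were called. Calls made in all 24 alternatives numbered 7 of 12 in R149, 4 of 8 in R158 and 4 of 8 in R323. A further 2, 1 and 2 calls were made wherever the gene was tested, but the gene did not pass the filter in at least 1 alternative. They include gene 11 (R149 and R323) and gene 12 (R149), which passed only through WT, so their stability is not read.

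Genes 25, 27, 33 and 43 rose against EV in at least 2 mutant lines each. That the mutant means stayed under those of WT was fixed by the rule, for these and all other members. Gene 43 held 0.0521, 0.202 and 0.27 CPM in the EV libraries and 2.39, 3.08 and 2.6 in WT. Its mutant libraries held 1.95, 0.829 and 0.946 CPM in R149, 1.05, 1.09 and 1.36 in R158, and 0.602, 0.657 and 1.09 in R323. Every mutant library lay above the 3 EV libraries and below the 3 WT libraries. The log2 fold changes against EV were 2.81 ± 0.47 (SE) in R149 and 2.73 ± 0.49 in R158, with edgeR adjusted p of 3.3e-04 and 0.0012. In R323 the mean was 0.782 ± 0.265 CPM (SD, n = 3) against 0.175 ± 0.111 in EV, with an edgeR adjusted p of 0.00538.

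Gene 25 was all but absent from EV, with 1 count in 3 libraries. It stood at 0.46, 0.553 and 0.707 CPM in R149, 0.376, 0.818 and 0.415 in R158, 0.164, 0.538 and 0.543 in R323, and 0.918, 3.11 and 2.08 in WT. All 9 mutant libraries lay above EV and below WT. From the summed counts the ratio to EV was 51.3 in R149 (95% exact counting interval 9.03 to 2044), 49.8 in R158 (8.39 to 2021) and 36.6 in R323 (6.11 to 1490.4), and the edgeR adjusted p was at most 0.00263.

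Gene 33 stood at 1.09, 0.0896 and 0.162 CPM in EV, with replicate 1 the highest, and at 3.17, 9.49 and 7.77 in WT. Its R323 libraries held 2.03, 2.72 and 2.47 CPM, above EV and below WT, a log2 fold change of 2.64 ± 0.62 with an edgeR adjusted p of 0.00509. Its rises in R149 (2.01 ± 0.62) and R158 (2.15 ± 0.64), with edgeR adjusted p of 0.0184 and 0.0223, were not called without EV replicate 2 (0.103 and 0.101) or without EV replicate 3 (0.0803 and 0.0913), and the rise in R149 not in a fit of R149 and EV alone (0.0655). The rise in R158 was also not called without R158 replicate 2 or 3 (0.0632 and 0.0612).

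Gene 27 separated the mutant lines. It had 3 counts in the EV libraries together and stood at 2.39, 4.94 and 4.17 CPM in WT. In R149 it held 0.568, 0.783 and 1.01 CPM. In R158 it held 1.2, 1.36 and 0.711 CPM, and in R323 0.219, 0.0896 and 0.148. The R149 and R158 libraries did not overlap with those of R323. From the summed counts the ratio to EV was 23.9 in R149 (95% exact counting interval 8.04 to 117) and 31.4 in R158 (10.3 to 155.8), with edgeR adjusted p of 8.0e-05 and 1.0e-04, while R323 was not called (log2 fold change 1.89 ± 0.82, adjusted p = 0.0945).

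Other genes fell below EV in mutant lines although WT stood above EV. Gene 9, ENSRNOG00000043342, held 8.81, 3.96 and 4.43 CPM in EV and 27.7, 56.3 and 59.1 in WT. It held 1.14, 0.345 and 0.395 CPM in R149, 1.58, 0.784 and 0.83 in R158, and 0.493, 0.149 and 0.444 in R323. Every mutant library lay below every EV library, and every WT library above. The log2 fold changes against EV were -3.22 ± 0.46 (SE), -2.42 ± 0.49 and -4.08 ± 0.57 in R149, R158 and R323, with edgeR adjusted p of 1.0e-04, 0.00268 and 1.1e-04, and all 3 were called in all 24 alternatives.

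Gene 11 kept nearly the same proportions as gene 9 across the 15 libraries (chi-square per degree of freedom 1.11), with 16.2 times fewer counts. It held 0.73, 0.246 and 0.432 CPM in EV and 1.89, 3.29 and 3.25 in WT, and no mutant library exceeded 0.15 CPM. Its falls in R149 (log2 fold change -3.40 ± 0.72, edgeR adjusted p = 0.00179) and R323 (1 count in 3 libraries, adjusted p = 0.00335) were called in the 22 alternatives that tested it. It was not tested in the fits of 2 lines or without WT libraries, since it passed the filter only through WT. The fall in R158 (-2.29 ± 0.79, adjusted p = 0.0414) was not called without EV replicate 1 or 3, WT replicate 2 or 3, R149 replicate 3 or any 1 of the R158 replicates, nor with replicates 2 and 3 alone, with adjusted p up to 0.123.

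Gene 28, ENSRNOG00000048187, fell in R149 and R323. Its EV libraries held 1.67, 2.17 and 2.7 CPM and its WT libraries 6.53, 6.62 and 9.46. It held 0.162, 0.599 and 0.505 CPM in R149, 1.8, 1.84 and 1.48 in R158, and 0.438, 0.418 and 0.642 in R323. The R158 libraries overlapped with EV, and those of R149 and R323 lay below both. The log2 fold changes against EV were -2.26 ± 0.34 in R149 and -2.13 ± 0.37 in R323, with edgeR adjusted p of 1.5e-04 and 6.8e-04, and -0.29 ± 0.33 in R158 (adjusted p = 0.545).

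Gene 42 held 8.03, 7.73 and 6.65 CPM in EV and 9.23, 22.8 and 18.9 in WT. It fell to 2.24, 4.51 and 4.2 CPM in R149 and to 2.18, 2.08 and 2.19 in R158, log2 fold changes of -0.96 ± 0.27 and -1.74 ± 0.30 with edgeR adjusted p of 0.0102 and 8.4e-04. In R323 it held 4.38, 4.48 and 4.44 CPM, below the 3 EV libraries, a change that was not called in the fit of 15 libraries (-0.74 ± 0.27, adjusted p = 0.0532). The change in R323 was called in a fit of R323 and EV alone (edgeR adjusted p = 0.00461) and with the replicate block (0.0246). Fits of 2 lines also added rises of gene 36 in R158 (0.0149) and gene 44 in R323 (0.0112). The block added falls of gene 32 in R149, R158 and R323 (0.0430, 0.00972 and 0.0240) and of gene 47 in R149 (0.00932). It also added rises of gene 37 in R158 (0.0390) and of genes 14 and 44 in R323 (0.0118 and 0.0435). Gene 14 passed the filter only through WT.

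**Figure D4:**
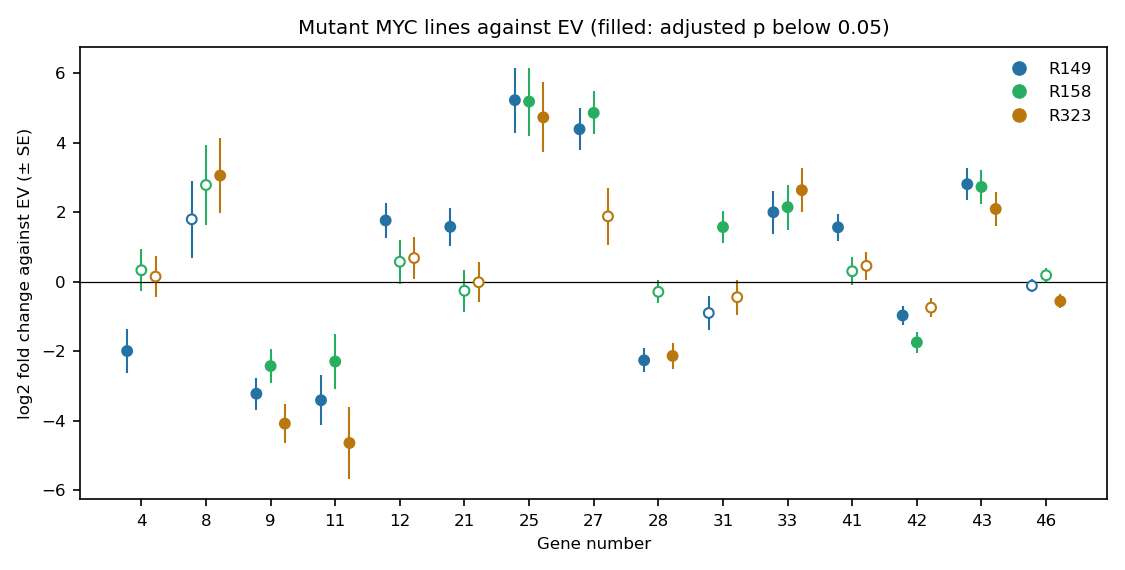
The log2 fold change against EV (± SE, edgeR, n = 3 libraries a line) is given for R149, R158 and R323 and the 15 genes called in at least 1 of these comparisons. Filled points have an adjusted p below 0.05. Genes 25, 33 and 43 were called above 0 in all 3 lines, and genes 9 and 11 below 0 in all 3. Genes 8, 12, 27 and 41 also lie above 0 in all 3 lines, and genes 28 and 42 below 0, but these were not called in every line. Fitted values of genes 8, 11, 25 and 27 rest on 3 or fewer counts in a line.

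The remaining calls against EV were in 1 mutant line each. Gene 12, which passed the filter only through WT, rose in R149 (log2 fold change 1.77 ± 0.50, edgeR adjusted p = 0.0116), from 0.0521, 0.134 and 0.054 CPM to 0.378, 0.161 and 0.376, beside 1.73, 1.86 and 1.78 in WT. Gene 41 rose in R149 (1.57 ± 0.39, adjusted p = 0.00556), from 19.2, 15.5 and 15.9 CPM in EV to 24.4, 62.8 and 57, beside 53.8, 128 and 149.6 in WT, so that R149 replicates 2 and 3 exceeded WT replicate 1. Gene 21 rose in R149 (1.59 ± 0.54, adjusted p = 0.0307), but not without EV replicate 2 (0.138), EV replicate 3 (0.123) or R149 replicate 1 (0.0989), nor with DESeq2 (0.0504).

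Gene 4, which passed the filter only through WT, fell in R149 (log2 fold change -1.99 ± 0.64, edgeR adjusted p = 0.0232), but not without EV replicate 2 (0.0666), EV replicate 3 (0.0829) or R149 replicate 2 (0.0513). Gene 31 rose in R158 (1.58 ± 0.47, adjusted p = 0.0217), but not without EV replicate 1 (0.0778), EV replicate 3 (0.0503) or R158 replicate 2 (0.0648). Gene 8, which also passed only through WT, rose in R323 from 1 count in EV to 9 counts (ratio 10.3, 95% exact counting interval 1.43 to 451), with an edgeR adjusted p of 0.0444, and was called in 6 of 22 alternatives. Gene 46 fell in R323 by 0.56 ± 0.20 on the log2 scale (adjusted p = 0.0464) and was called in 15 of 24 alternatives. None of the 7 genes of near-identical counts was called, with log2 fold changes between -0.20 and 0.97 and a lowest adjusted p of 0.336.

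The mutant lines were also set against each other, which asked whether these genes differed between the lines. Each substitution was 1 stable line, so a difference cannot be assigned to the position of the substitution. Of the 46 genes, 2 were called between R149 and R158, 1 between R149 and R323 and 2 between R158 and R323. Both calls of the first comparison were lower in R149, where 1.27% of all genes were called (0.271% higher and 1% lower). The call of the second was higher in R149, where 1.07% were called (0.183% higher and 0.892% lower). Both calls of the third were higher in R158, where 0.936% were called (0.578% higher and 0.358% lower). Only genes 27, 28 and 31 were concerned. These counts are small and moved with single libraries. No gene was called between R149 and R158 without R158 replicate 2, between R149 and R323 without R149 replicate 2 or 3 or R323 replicate 2 or 3, or between R158 and R323 without R158 replicate 2 or R323 replicate 2 or 3. In a fit of R149 and R158 alone neither gene 28 (adjusted p = 0.171) nor gene 31 (0.0907) was called, and gene 21 was, higher in R149 by 1.85 on the log2 scale (edgeR adjusted p = 0.0300). With replicates 2 and 3 alone, 5, 9 and 9 genes were called, where 4.54%, 3.96% and 9.23% of all genes were.

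Gene 27 was lower in R323 than in both other mutants. R149 exceeded R323 by 2.51 ± 0.50 on the log2 scale (edgeR adjusted p = 0.0207) and R158 exceeded it by 2.98 ± 0.51 (adjusted p = 0.0103). R149 and R158 were not called different, at -0.47 ± 0.38 (adjusted p = 0.791). Gene 28 was higher in R158 than in both others. R149 was lower than R158 by a log2 difference of -1.97 ± 0.35 (adjusted p = 0.0101), and R158 exceeded R323 by 1.84 ± 0.38 (adjusted p = 0.0306). The second difference was not called without EV replicate 2, R158 replicate 1 or 2, or any 1 of the R323 replicates, with adjusted p up to 0.203. Nor was it called in a fit without the WT libraries (edgeR adjusted p = 0.0739).

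Gene 31 stood at 2.65, 0.76 and 0.725 CPM in R149, 5.86, 7.97 and 8.06 in R158, and 1.26, 1.91 and 2.42 in R323, beside 1.3, 3.14 and 3.08 in EV and 12, 25.5 and 32.5 in WT. All 3 R158 libraries lay between WT and the other lines. R149 was lower than R158 by a log2 difference of -2.47 ± 0.48 (edgeR adjusted p = 0.0159), and R158 stood above R323 by 2.02 ± 0.49 (adjusted p = 0.0688). Without R149 replicate 2 or 3, or R158 replicate 2 or 3, the first difference was not called (adjusted p 0.0857, 0.0933, 0.0661 and 0.0563).

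When equal replicate numbers were treated as pairs in a block, 4 genes were called between R149 and R158, 3 between R149 and R323 and 3 between R158 and R323. Of all genes, 2.79%, 2.21% and 3.44% were called in these comparisons. The calls added were a lower level of gene 4 in R149 than in R158 (log2 difference -2.42, edgeR adjusted p = 0.0301) and R323 (-2.24, adjusted p = 0.0425), a higher level of gene 41 in R149 than in R158 (1.20, adjusted p = 0.0246) and R323 (1.12, adjusted p = 0.0368), and a higher level of gene 31 in R158 than in R323 (2.03, adjusted p = 0.0387).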

How the data were processed

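The authors deposited raw counts per gene, 1 table per library, which are whole numbers without normalization, as the values show. TopHat2 2.1.0 and Rnor_6.0 stand in the submitters' processing notes. Which program counted reads, with which strand setting and annotation, is not given in the sources used here. Therefore genes that overlap or share reads with copies are uncertain. Members and lists were chosen with earlier results of these data known.

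CPM was the count times 1000000 over the column sum. The test was that of edgeR 4.0.16, run on the counts under R 4.3.3 (TMM scaling, filterByExpr with its minimum of 10 counts, quasi-likelihood test, line as the only term, 15 libraries). SE is the log2 fold change over the square root of F. Near-identical profiles had chi-square per degree of freedom up to 2.5 with at least 1 other such gene, totals within 1.5 times and at least 200 counts, and only the largest group was merged. The labels call the 3 replicates per line biological without saying what was separate, so p-values measure only the spread between these libraries. No pair of replicates of the same line agreed within counting noise, and pairs from different lines were not compared in this way.

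Replicate numbers come from the labels, which name no shared day. Deviations of equally numbered libraries correlated at 0.127 to 0.499 between mutants, above 0.1 in every pair, and at 0.00523 to 0.176 between mutants and EV. The rule for named genes took the 12 largest ratios, the 8 most abundant, those at each threshold, the 2 largest called changes per contrast and direction, the 3 resting most on 1 library, listed genes and neighbours, with at most 2 identifiers. Listed genes and neighbours could not be found, because the identifiers matched no name. Other members described, and the identifiers of genes 9 and 28, were chosen after their values were seen. DESeq2 1.42.0 was an alternative, as were RLE scaling, column sums, no filter, fits of 2 lines, a replicate block and leaving out each library.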

Additional observations from a re-analysis of the deposited data

Results flagged for a closer look

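The levels of genes 27, 28 and 31 differed between mutant lines, by the test of the difference itself. Gene 27 was higher in R149 than in R323 by 2.51 and in R158 than in R323 by 2.98 (log2, edgeR adjusted p = 0.0207 and 0.0103). Gene 28 differed by -1.97 between R149 and R158 (adjusted p = 0.0101) and by 1.84 between R158 and R323 (adjusted p = 0.0306). Gene 31 differed by -2.47 between R149 and R158 (adjusted p = 0.0159). Of 24 alternatives, the 5 differences were called in 19, 21, 22, 17 and 19, in this order.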

How the results depend on the processing

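The 47 genes were the same with TMM or DESeq2 scaling of CPM. Their number was 67 at 1.5 times, 32 at 3 times, 39 at 2 CPM, 60 at 0.5 CPM and 48 with medians (43 shared), and 32 to 59 when 1 library was left out. Against EV, members called with replicates 2 and 3 alone (chosen after seeing the data) were 21, 14 and 15 for R149, R158 and R323. When 1 library was left out they were 9 to 13, 5 to 8 and 6 to 10. Of all genes, 27.8% to 40.3%, 15.1% to 32.4% and 21% to 33.8% were then called. With the replicate block they were 14, 10 and 11, where 48.2%, 39% and 38.9% of all genes were called. The block used replicate numbers from the labels, which name no shared day. Between R149 and R158 the count of 2 became 1 in a fit of the 2 lines (gene 21, with genes 28 and 31 lost), 4 with the block, 5 with replicates 2 and 3 alone and 0 to 2 without 1 library. Between R149 and R323 the count of 1 became 0, 3, 9 and 0 to 1 under these, and 2 with DESeq2. Between R158 and R323 the count of 2 became 5 with DESeq2, 9 with replicates 2 and 3 alone, 1 without WT libraries in the fit and 0 to 4 without 1 library. Over all alternatives the share of all genes called was 0.319% to 4.54% between R149 and R158. It was 0.4% to 3.96% between R149 and R323 and 0.226% to 9.23% between R158 and R323. The cause of these changes was not tested. For single genes called, 73 alternatives lost the call, 705 kept it and 0 changed direction. Genes of under 1 CPM are limited by depth.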
